A study of Mus musculus with 19 samples.

Results

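Transcripts of red blood cells were followed in the livers of 19 female Balb/c mice across 3 reproductive stages, and 7 genes were described mouse by mouse among the 51826 gene entries measured. The 7 genes were the adult α-globins Hba-a1 and Hba-a2, the adult β-globins Hbb-bs and Hbb-bt, and the non-globin erythroid genes Alas2, Slc4a1 and Fech. They were picked by gene symbol, and they were picked because hemoglobin transcripts had already been seen to differ between the stages, so their differences between stages are a description, and calls made on them in the fit over all genes support nothing. The 4 globins were also summed and set against the 3 non-globin genes.

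The stages were nulliparous (NUL, 7 mice that had not borne a litter), lactation day 10 (LAC, 6 mice) and involution day 6 (ID6, 6 mice, 6 days after weaning). All groups were of the same strain and sex, were labelled as 12 weeks old, carried no engineered allele and received no agent, and each library came from 1 mouse. The mice were euthanized by CO2 with cardiac puncture, and the livers were rinsed in buffered saline. Flash frozen caudate lobes are described for RNA extraction, and flash frozen whole liver for the sequencing. Perfusion to clear the livers of blood is not described in the sources used here. Balb/c mice were obtained from more than 1 supplier, and which mouse came from which supplier is not given in the sources used here. Animal numbers below 200 occurred in 3 NUL and 3 LAC mice, and numbers of 200 and above in 4 NUL, 3 LAC and all 6 ID6 mice, so involution could be compared within 1 range of numbers only. These ranges are not a batch named in the study, but values for the mice numbered 200 and above are given beside the main pooled ones.

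Hemoglobin, the oxygen carrier of red blood cells, is built from α- and β-globin chains that each hold a heme group. Erythroid precursors make globin messenger RNA in very large amounts, and reticulocytes, the youngest cells in the circulation, still hold it after the nucleus is gone. The adult liver is not normally a site of red cell production, but it is filled with blood and its macrophages clear aged red cells. Alas2 encodes the erythroid form of the enzyme that starts heme synthesis, Fech encodes ferrochelatase, which inserts iron in the last step, and Slc4a1 encodes band 3, the anion exchanger of the red cell membrane. Alas2 and Slc4a1 are largely erythroid genes, whereas every cell that makes heme, hepatocytes included, uses Fech.

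Messenger RNA was measured as TPM, the transcripts of a gene relative to all transcripts of that mouse, scaled to one total, a unit that corrects for gene length and allows levels of different genes to be compared. Each mouse summed to between 999999 and 1000001 TPM, so the number of reads behind a value is unknown and no counting interval can be given. Precision is therefore given as the SD between mice.

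The paralogs in each globin pair are close to identical, which limits how far reads can be assigned to one of them. In the GENCODE M21 annotation of GRCm38, Hba-a1 (ENSMUSG00000069919) lies at chr11:32283511-32284465 and Hba-a2 (ENSMUSG00000069917) at chr11:32296489-32297298, both on the plus strand. Their coding sequences of 429 bases differed at 1 base, C381T counted from the first base of the start codon with Hba-a1 first, an identity of 99.77%. Hbb-bs (ENSMUSG00000052305) lies at chr7:103826534-103828096 and Hbb-bt (ENSMUSG00000073940) at chr7:103812524-103813996, both on the minus strand. Their coding sequences of 444 bases also differed at 1 base, C417T with Hbb-bs first, an identity of 99.77%. The stretches around these bases are shown because they are all that separates the coding parts of each pair, with the differing base in capitals.
Hba-a1, coding bases 341 to 400: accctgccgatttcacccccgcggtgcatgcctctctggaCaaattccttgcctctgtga
Hba-a2, coding bases 341 to 400: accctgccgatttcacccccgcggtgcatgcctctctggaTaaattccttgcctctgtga
Hbb-bs, coding bases 377 to 436: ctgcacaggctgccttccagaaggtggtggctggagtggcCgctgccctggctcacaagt
Hbb-bt, coding bases 377 to 436: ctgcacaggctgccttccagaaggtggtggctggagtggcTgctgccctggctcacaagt
Other differences lie outside the coding parts, and the annotated transcripts were 699 bases for Hba-a1, 554 for Hba-a2, 628 for Hbb-bs and 703 for Hbb-bt. The reference genome carries the single Hbb haplotype of C57BL/6 mice, whereas Balb/c mice carry the diffuse haplotype, so the split of reads between Hbb-bs and Hbb-bt in these mice is uncertain, and sums over both genes were used beside the single genes.

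Globin transcripts were abundant in nulliparous and lactating livers and several-fold lower in every involuting liver. The 4 globins together held 1606 ± 449 TPM in NUL (SD, n = 7), 2198 ± 750 TPM in LAC (SD, n = 6) and 353 ± 248 TPM in ID6 (SD, n = 6), or 0.161%, 0.22% and 0.0353% of all transcripts. In NUL mice the sum ran from 1140.08 to 2400.26 TPM with a median of 1461, and in LAC mice from 1325.14 to 3327.42 TPM with a median of 2089. In ID6 mice it was 360.73, 295.10, 840.90, 224.33, 194.61 and 199.82 TPM in ID6_201, ID6_209, ID6_216, ID6_218, ID6_230 and ID6_232. Every ID6 mouse was below every NUL and every LAC mouse, and ID6_216 stood between its stage and the rest. In bulk tissue, fewer red cells or reticulocytes and less globin RNA per cell cannot be told apart.

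The mean globin sum was 6.23-fold lower in ID6 than in LAC, a log2 difference of -2.78 (SE 0.38) on the scale of log2(TPM + 1). Without ID6_216 the ID6 mean was 255 ± 71.4 TPM (SD, n = 5) and the difference from LAC 8.62-fold. Against NUL the sum in ID6 was 4.55-fold lower, a log2 difference of -2.35 (SE 0.36), and 6.3-fold lower without ID6_216. Between LAC and NUL the log2 difference was 0.43 (SE 0.25), and the mice of the 2 stages overlapped. Among mice numbered 200 and above only, the log2 differences were -3.17 for ID6 against LAC, -2.36 for ID6 against NUL and 0.82 for LAC against NUL. The 3 LAC mice in that range, at 2246.47 to 3327.42 TPM, were above all 3 LAC mice with lower numbers, at 1325.14 to 1932.02 TPM.

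**Figure D1:**
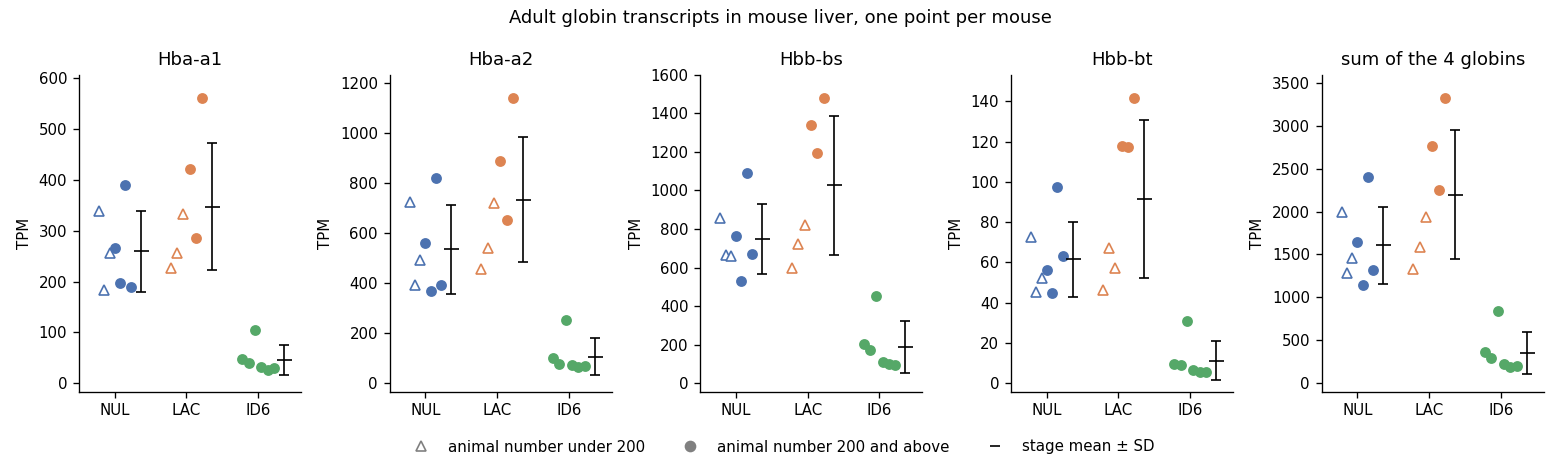
TPM of each adult globin and of their sum (vertical axes, linear from 0) in NUL, LAC and ID6 mice, with 1 point per mouse, open triangles for animal numbers under 200, filled circles for 200 and above, and bars for the stage mean ± SD. All 6 ID6 mice lie below all NUL and LAC mice in every panel, and the highest ID6 point, ID6_216, reaches 840.90 TPM in the sum.

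Hbb-bs was listed at the highest level of the members, although this place rests on the uncertain split of β-globin reads. It was at 531.56 to 1090.77 TPM in NUL (median 672.2), 597.25 to 1481.50 TPM in LAC (median 1007) and 96.14 to 451.92 TPM in ID6 (median 141.1). The stage means of 749 ± 182, 1026 ± 361 and 189 ± 136 TPM (SD, n = 7, 6 and 6) placed it 151st, 101st and 642nd among all gene entries. The ID6 mice lay below all others, and their mean was 5.44-fold lower than in LAC and 3.97-fold lower than in NUL.

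Hba-a2 followed in every mouse. Its values ran from 366.88 to 822.02 TPM in NUL (median 493.8), from 455.84 to 1142.28 TPM in LAC (median 685.5) and from 66.55 to 253.66 TPM in ID6 (median 75.22). The ID6 mean of 106 ± 73.1 TPM (SD, n = 6) was 6.89-fold lower than the LAC mean of 733 ± 250 TPM and 5.03-fold lower than the NUL mean of 535 ± 178 TPM, again with no overlap between ID6 and the other stages.

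Hba-a1, the other α-globin, was below Hba-a2 in all 19 mice. It ran from 183.21 to 390.05 TPM in NUL (median 256.7), from 225.65 to 561.75 TPM in LAC (median 309.2) and from 25.08 to 104.28 TPM in ID6 (median 35.67). The mean of 46.3 ± 29.4 TPM in ID6 (SD, n = 6) was 7.5-fold lower than the 347 ± 125 TPM of LAC and 5.61-fold lower than the 260 ± 79.7 TPM of NUL.

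Hbb-bt, the lowest of the 4, showed the same separation. It ran from 44.79 to 97.42 TPM in NUL (median 56.38), from 46.40 to 141.89 TPM in LAC (median 92.33) and from 5.47 to 31.04 TPM in ID6 (median 7.71). The ID6 mean of 11.2 ± 9.85 TPM (SD, n = 6) was 8.13-fold lower than the LAC mean of 91.4 ± 39.2 TPM and 12.6-fold lower without ID6_216. Against the NUL mean of 61.7 ± 18.6 TPM it was 5.49-fold lower, or 8.47-fold without that animal. Among mice numbered 200 and above, the ID6 means were lower than the LAC means by 7.1-fold for Hbb-bs, 8.4-fold for Hba-a2, 9.12-fold for Hba-a1 and 11.2-fold for Hbb-bt, each wider than over all mice. Against NUL they were then lower by 4.06-, 5.02-, 5.62- and 5.82-fold, in that order.

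The order Hbb-bs, Hba-a2, Hba-a1, Hbb-bt held in the listed values of all 19 mice, although the ranges of neighbours across mice overlapped in part. The places of Hbb-bs and Hbb-bt depend on how reads were divided between these near-identical genes, and so do those of Hba-a2 and Hba-a1. Fech stood near Hbb-bt in the first 2 stages, since Hbb-bt was the higher of the pair in 2 of 7 NUL and 3 of 6 LAC mice. In ID6 mice Fech was above Hbb-bt in all 6 and above Hba-a1 in all but ID6_216. Alas2 was below Fech and Hbb-bt in all 19 mice, and Slc4a1 was the lowest member throughout.

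Alas2, the erythroid enzyme at the start of heme synthesis, was also lowest in ID6, but the fall was smaller and the stages overlapped. In NUL mice it was 16.13, 18.54 and 16.83 TPM in NUL_1, NUL_13 and NUL_4 and 5.77, 3.99, 7.18 and 4.66 TPM in NUL_220, NUL_221, NUL_226 and NUL_227. In LAC mice it ran from 5.98 to 8.96 TPM with a median of 6.24, and in ID6 it was 3.47, 2.25, 6.25, 2.66, 1.90 and 1.67 TPM in ID6_201, ID6_209, ID6_216, ID6_218, ID6_230 and ID6_232. The 3 NUL mice numbered below 200 were thus apart from all 16 other mice, and among the ID6 mice only ID6_216 reached the range of LAC.

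The ID6 mean of Alas2, 3.03 ± 1.7 TPM (SD, n = 6), was 2.26-fold lower than the LAC mean of 6.86 ± 1.2 TPM, a log2 difference of -1.04 (SE 0.23). Against the NUL mean of 10.4 ± 6.41 TPM (SD, n = 7) it was 3.44-fold lower, a log2 difference of -1.38 (SE 0.39), but among mice numbered 200 and above, where the NUL mean was 5.4 ± 1.4 TPM (SD, n = 4), the log2 difference was -0.73. Between LAC and NUL the log2 difference turned from -0.35 over all mice to 0.43 in mice numbered 200 and above. Car1, an erythroid carbonic anhydrase that other tissues also make, was likewise higher in the 3 NUL mice numbered below 200, at 10.55 to 13.67 TPM against 5.34 to 8.52 TPM in the other 4. It was also higher in the LAC mice numbered below 200, at 8.03 to 8.85 TPM against 2.44 to 3.66 TPM. What the difference in Alas2 between the ranges rests on was not tested.

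Slc4a1, band 3 of the red cell membrane, was close to the limit of the table, which gives 2 decimals. It was listed at 0.01 to 0.35 TPM in NUL mice, with a median of 0.05 and the highest value in NUL_226, and at 0.01 to 0.11 TPM in LAC mice, with a median of 0.085. All 6 ID6 mice were listed at 0, whereas all NUL and LAC mice were above 0. No fold change can be given against values listed at 0, and at 2 decimals a value of 0 does not show that the transcript was absent.

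Fech (ENSMUSG00000024588) did not share the fall of the globins. It ran from 55.47 to 72.02 TPM in NUL (median 63.83), from 55.95 to 81.74 TPM in LAC (median 67.02) and from 57.32 to 69.72 TPM in ID6 (median 62.38). The 3 stages overlapped throughout, and the means were 63.9 ± 5.66, 68.3 ± 11.2 and 62.3 ± 4.47 TPM (SD, n = 7, 6 and 6). The log2 difference of ID6 against LAC was -0.12 (SE 0.10) and that against NUL -0.03 (SE 0.06), both within the spread between mice, and both turned to 0.09 and 0.04 in mice numbered 200 and above. Within LAC, the 3 mice with lower numbers held 72.98 to 81.74 TPM and the 3 with higher numbers 55.95 to 61.06 TPM.

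**Figure D2:**
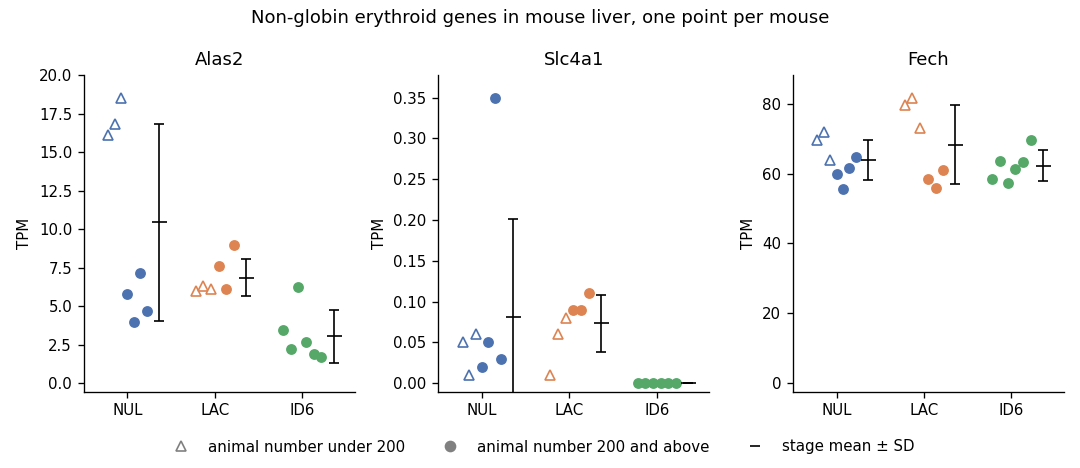
TPM of Alas2, Slc4a1 and Fech (vertical axes, linear from 0) in NUL, LAC and ID6 mice, with 1 point per mouse, open triangles for animal numbers under 200, filled circles for 200 and above, and bars for the stage mean ± SD. Alas2 is at 16.13 to 18.54 TPM in 3 NUL mice only, Slc4a1 is listed at 0 in all 6 ID6 mice, and Fech overlaps between all stages.

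The share of α-globins in the globin sum overlapped between the stages, whereas the share of Hbb-bt within β-globin was lower in every ID6 mouse than in every LAC mouse. α-globins made up 49.1% ± 3.41 of globin TPM in NUL (SD, n = 7), 49.4% ± 4.44 in LAC (SD, n = 6) and 44.3% ± 3.98 in ID6 (SD, n = 6), with ranges of 44.1% to 53.3%, 41.7% to 54.5% and 39.3% to 49.1% that overlapped. Hba-a2 held 65.1% to 72.6% of α-globin TPM over all 19 mice. Hbb-bt held 6.39% to 8.57% of β-globin TPM in NUL, 6.53% to 8.95% in LAC and 4.56% to 6.43% in ID6, so that the ID6 mice overlapped NUL only through ID6_216 and NUL_4. The mean share was 5.41% ± 0.642 in ID6 against 8.01% ± 0.952 in LAC (SD, n = 6 each). Since the split rests on reads from near-identical genes of another haplotype, this share carries the uncertainty described above.

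Relative to the globins, Alas2 was higher in involution. For each 1000 TPM of globin there were 2.69 to 4.51 TPM of Alas2 in LAC and 7.43 to 11.9 TPM in ID6. Among NUL mice the ratio was 2.99 to 3.54 in the 4 mice numbered 200 and above and 8.09 to 13.1 in the 3 numbered below 200. ID6 was thus apart from LAC, whereas it overlapped the NUL mice with low numbers and lay above the others.

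**Figure D3:**
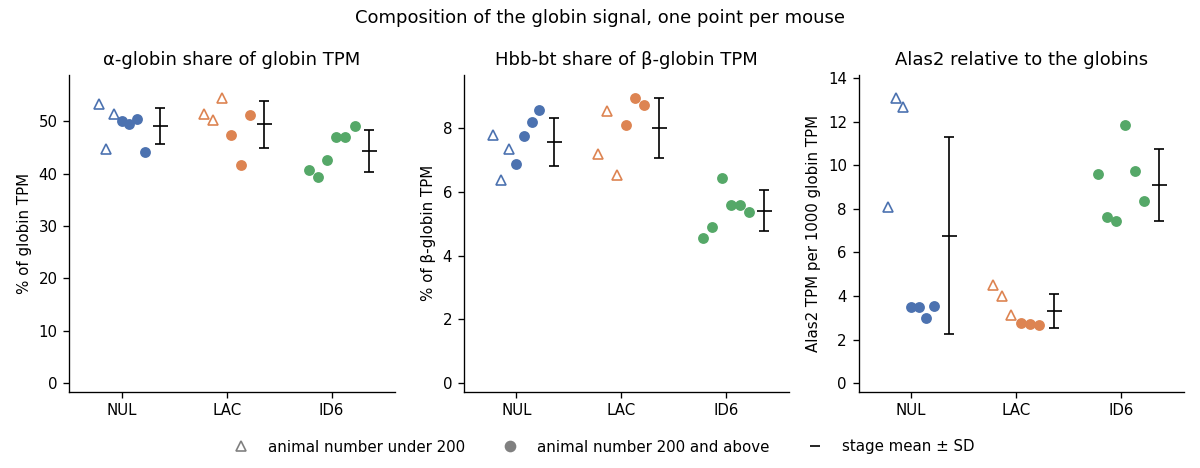
Share of α-globins in globin TPM (%), share of Hbb-bt in β-globin TPM (%) and Alas2 TPM per 1000 globin TPM (vertical axes, linear from 0) for each NUL, LAC and ID6 mouse, with symbols by animal number and bars for the stage mean ± SD. The α share overlaps between stages, the Hbb-bt share in ID6 mice lies below that in all LAC mice, and Alas2 per globin is 7.43 or more in every ID6 mouse against at most 4.51 in LAC.

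The genes had been chosen for their differences between stages, so covariation was examined within each stage, where those differences do not enter. Across the 6 ID6 mice, Alas2 followed the globin sum with Pearson's r = 0.959 (exact permutation p = 0.0111, adjusted 0.0444 over the 8 relations that could be computed, two-sided) and Spearman's rho = 0.886 (exact permutation p = 0.0333, adjusted 0.133). With the 2 mice most distant from the median left out r was 0.506, so the relation rested on those mice, ID6_216 among them. In LAC the same pair gave r = 0.855 (exact permutation p = 0.0264, adjusted 0.0704) and rho = 0.829 (exact permutation p = 0.0583, adjusted 0.156). In NUL the values were r = 0.197 (exact permutation p = 0.643, adjusted 0.735) and rho = 0.286 (exact permutation p = 0.556, adjusted 0.635), with the mice of low animal number lying above the others in Alas2.

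Slc4a1 followed the globin sum in LAC with r = 0.909 (exact permutation p = 0.00556, adjusted 0.0444) and rho = 0.986 (exact permutation p = 0.00556, adjusted 0.0444). With the 2 most distant mice left out r was 0.904, but all these values lie between 0.01 and 0.11 TPM. In NUL, r = 0.731 (exact permutation p = 0.0563, adjusted 0.1) and rho = 0.487 (exact permutation p = 0.278, adjusted 0.37) rested on NUL_226, and without the 2 farthest mice r was -0.184. The relations in LAC run in part along the split by animal number, since the mice numbered 200 and above held more globin, and each range holds too few LAC mice, 3, for a value of its own.

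Fech ran against the globin sum in the 2 stages after pregnancy, though neither relation passed the adjustment. The values were r = -0.828 in LAC (exact permutation p = 0.0625, adjusted 0.1) with rho = -0.714 (exact permutation p = 0.136, adjusted 0.218), and r = -0.888 without the 2 mice farthest from the median. In ID6 they were r = -0.752 (exact permutation p = 0.0875, adjusted 0.117) with rho = -0.714 (exact permutation p = 0.136, adjusted 0.218), and r = -0.317 without the 2 farthest mice. In NUL r was 0.156 (exact permutation p = 0.738, adjusted 0.738) and rho 0.036 (exact permutation p = 0.963, adjusted 0.963). The smallest p that 6 mice allow is 0.00139. In LAC the relation ran along the split by animal number. Mice numbered below 200 held 1325.14 to 1932.02 TPM of globin, the others 2246.47 to 3327.42 TPM. With rising globin sum, Fech was 79.5, 81.74 and 72.98 TPM in LAC_36, LAC_102 and LAC_133. Among mice numbered 200 and above it rose with the sum, at 55.95, 58.33 and 61.06 TPM in LAC_213, LAC_200 and LAC_240. Leaving out the 2 farthest mice kept LAC mice of both ranges.

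**Figure D4:**
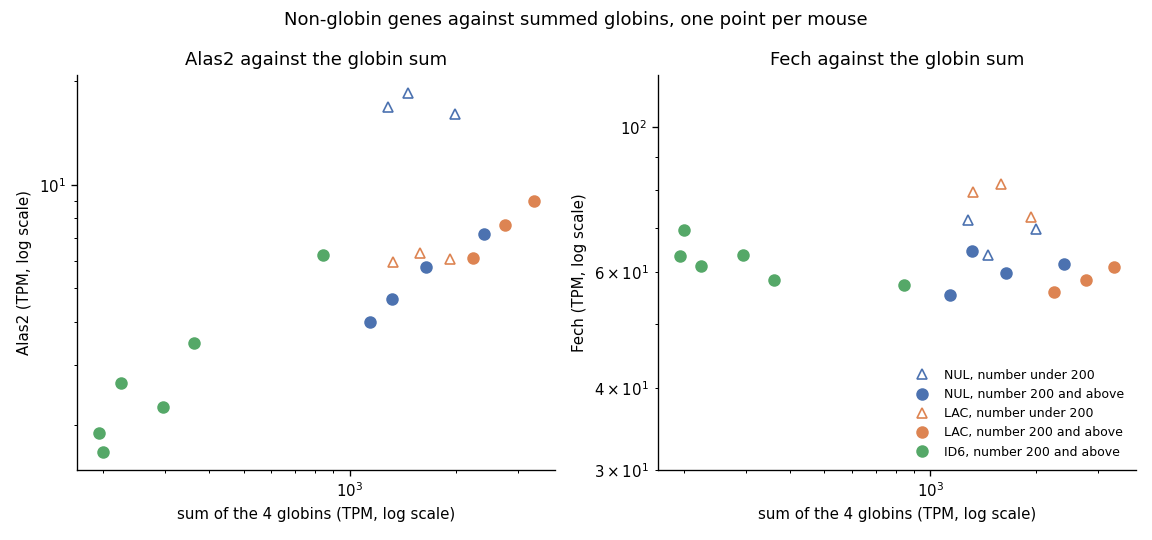
Alas2 and Fech (vertical axes, TPM, log scale) against the sum of the 4 globins (horizontal axes, TPM, log scale), 1 point per mouse, coloured by stage, with open triangles for animal numbers under 200 and filled circles for 200 and above. The 3 NUL mice with low numbers lie above the others in Alas2, whereas Fech stays between 55.47 and 81.74 TPM over the whole range of globin values.

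The 16230 genes that averaged 0.1 TPM or more were fitted together with limma-trend, and a gene was called at a Benjamini-Hochberg adjusted p under 0.05 and a log2 change of at least 1 in size. Of the 7 members, 6 passed the filter and Slc4a1 did not. In ID6 against LAC, 5 of the 6 were called lower, the 4 globins and Alas2, and 0 higher, where 0.906% of all genes tested were called lower and 1.03% higher. By the adjusted p alone the same 5 were lower, against 4.73% of all genes lower and 18.1% higher. Of the 6, the 4 globins were lower in every ID6 mouse than in every LAC mouse, against 2.16% of the genes tested, and so was Slc4a1, which was not among the genes tested. The members were chosen on this contrast, so nothing is read from these counts.

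In ID6 against NUL, 5 of the 6 were again called lower and 0 higher, against 0.173% of all genes called lower and 0.0801% called higher, and against 0.912% lower and 3.44% higher by the adjusted p alone. Of the 6, the 4 globins did not overlap, against 0.542% of genes tested, and neither did Slc4a1, which was not tested. ID6 mice enter both comparisons, so they are not independent. In LAC against NUL limma called 0 of 6, and 0 had an unadjusted p under 0.05, where 0.431% of all genes were called higher and 0.314% lower, and 2.72% were higher and 6.49% lower by the adjusted p alone. The count of 5 rested in part on Alas2, which lost the call in both ID6 comparisons with the range of animal number as covariate, at log2 differences of -0.69 against LAC and -1.08 against NUL. Against LAC it was called in 7 of 9 settings, lost also without a low filter at -1.04, and in 15 of 19 omissions of a mouse, lost at log2 differences of -0.99, -0.96, -0.94 and -0.97 without ID6_209, ID6_230, ID6_232 or LAC_240, in that order. Against NUL it was called in 6 of 9 settings, lost also in mice numbered 200 and above at -0.73 and in the fit of these 2 groups alone at -1.38, and in 16 of 19 omissions, lost at -1.28, -1.25 and -1.22 without ID6_232, NUL_1 or NUL_13, in that order.

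Few other red cell genes passed a test, and many were barely detected. Of 37 listed genes of the red cell membrane, erythroid regulation and late erythroid cells, 15 were below the filter and reached at most 0.51 TPM in any mouse (Kel). Of the 15 membrane genes listed, 3 were at 0 in all ID6 mice, against 1 in all LAC mice and 0 in all NUL mice. Among the 3 were Epb42, a protein of the membrane skeleton, and Kel, a blood group antigen. Epb42 was above 0 in only 3 NUL mice and 1 LAC mouse, and Kel in 3 NUL and 3 LAC mice. The other way, Add2, Rhd and Rhag were above 0 in 3, 2 and 2 ID6 mice against 1, 0 and 1 LAC mice. Gata1, the transcription factor that drives the erythroid program, reached at most 0.05 TPM. The 7 other globin genes in the table, embryonic and θ-like, reached at most 0.24 TPM, and 5 of them were at 0 in all NUL mice.

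The 6 membrane genes that passed the filter were not called in any comparison, and none passed by the adjusted p alone in limma, with 1 (LAC against NUL) and 0 (both others) at an unadjusted p under 0.05. Their median log2 differences were 0.03 for LAC against NUL, -0.07 for ID6 against LAC and 0.00 for ID6 against NUL, beside -0.032, 0.099 and 0.065 over all genes. Gypc and Epb41, which other cells also express, led this group at 9.43 ± 1.87 and 35.5 ± 6.41 TPM in ID6 (SD, n = 6). Ank1, Dmtn, Sptb and Icam4 averaged only 0.07, 0.108, 0.14 and 0.86 TPM in LAC. At such levels a fall as large as that of the globins cannot show at its full size on the scale of log2(TPM + 1). In TPM, the means of Ank1 and Icam4 went down from LAC to ID6, from 0.07 to 0.0167 and from 0.86 to 0.57. Those of Dmtn and Sptb went up, from 0.108 to 0.127 and from 0.14 to 0.23. Gypc and Epb41 went from 9.94 to 9.43 and from 38 to 35.5 TPM. The 9 membrane genes below the filter do not enter these medians.

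Among 6 erythroid regulators with values, 2 were called and in opposite directions. Nfe2, a transcription factor of erythroid cells and megakaryocytes, was at 0.644 ± 0.54 TPM in NUL, 4.27 ± 2.49 in LAC and 0.545 ± 0.211 in ID6 (SD, n = 7, 6 and 6). It rose in LAC against NUL (log2 1.62, SE 0.23, limma adjusted p = 2.18e-04) and fell in ID6 against LAC (log2 -1.67, SE 0.23, limma adjusted p = 6.37e-05). Lmo2, which joins erythroid and endothelial transcription factors, was at 9.83 ± 2.83, 4.36 ± 1.53 and 11.7 ± 0.995 TPM. It fell in LAC (log2 -1.02, SE 0.18, limma adjusted p = 0.00132) and rose in ID6 against LAC (log2 1.28, SE 0.19, limma adjusted p = 7.53e-05), though in mice numbered 200 and above the changes were -0.91 and 0.92 and below the fold threshold. Klf1, an activator of the adult β-globin genes, was at 0.893 ± 0.396, 0.633 ± 0.0824 and 0.592 ± 0.13 TPM and passed no test. The medians of the group were -0.07, 0.21 and 0.15 in the 3 comparisons.

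Of 10 other late erythroid transcripts, 0 were called by limma, and by the adjusted p alone 2 were lower and 1 higher in ID6 against LAC, with 3 at an unadjusted p under 0.05. In ID6 against NUL 1 was lower and 0 higher by the adjusted p alone, with 3 at an unadjusted p under 0.05. In LAC against NUL 0 passed by the adjusted p, with 2 at an unadjusted p under 0.05. Fam46c, one of those that were lower in ID6 than in LAC, was at 1.17 ± 0.456 TPM in NUL, 2.16 ± 1.24 in LAC and 0.97 ± 0.167 in ID6 (SD, n = 7, 6 and 6), and fell from LAC to ID6 by 0.61 on the log2 scale (SE 0.18, limma adjusted p = 0.0216). Against NUL Fam46c did not pass (log2 -0.12, SE 0.18, limma adjusted p = 0.709). The one that was higher in ID6 than in LAC was Fbxo7, a ubiquitin ligase subunit, which rose by 0.18 (SE 0.06, limma adjusted p = 0.0391). The group's medians of 0.06, 0.02 and -0.01 lay near those of all genes, and Bnip3l and Mkrn1, which many tissues use, differed by at most 0.07 on the log2 scale.

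None of the 11 other heme pathway genes was called by limma, with 6, 6 and 0 at an unadjusted p under 0.05 in LAC against NUL, ID6 against LAC and ID6 against NUL. Alas1, which starts heme synthesis in hepatocytes and other cells, was at 363 ± 217 TPM in NUL, 711 ± 301 in LAC and 339 ± 79.1 in ID6 (SD, n = 7, 6 and 6), with log2 differences of 1.13 (SE 0.40, limma adjusted p = 0.0881) and -0.98 (SE 0.42, limma adjusted p = 0.0993). By the adjusted p alone, 2 of 11 pathway genes rose and 1 fell in LAC, and 2 fell in ID6 against LAC. Those that rose and then fell were Slc25a37, the mitochondrial iron importer mitoferrin, at 5.8 ± 0.453, 9.23 ± 2.3 and 6.09 ± 1.56 TPM, and Abcb10, its mitochondrial partner, at 5.7 ± 0.577, 7.19 ± 0.744 and 5.93 ± 0.634 TPM. In mice numbered 200 and above, 0 of 11 rose in LAC and 0 fell in ID6. The medians were 0.09, -0.24 and -0.10 over all mice.

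Most genes that clear red cells, hemoglobin and heme were higher in ID6 than in LAC. In ID6 against LAC, 6 of 13 were called higher and 11 of 13 were higher by the adjusted p alone, with a median log2 difference of 0.97 against 0.099 for all genes. The other 2, the biliverdin reductase gene Blvrb and the heme transporter gene Slc48a1, did not pass, at 0.12 and -0.18. In LAC against NUL 5 of 13 were lower by the adjusted p alone, and in ID6 against NUL 6 of 13 were higher, with 0 called by limma in either and 8 and 10 at an unadjusted p under 0.05. Vsig4, a complement receptor of liver macrophages, was at 28.9 ± 5.7, 16.9 ± 3.71 and 47.7 ± 6.08 TPM in NUL, LAC and ID6 (SD, n = 7, 6 and 6), and rose from LAC to ID6 by 1.46 on the log2 scale (SE 0.15, limma adjusted p = 3.12e-06). Timd4, a receptor for dying cells, rose by 1.24 (SE 0.14, limma adjusted p = 6.49e-06), and Clec4f, a lectin of Kupffer cells, by 1.23 (SE 0.18, limma adjusted p = 8.12e-05). Hp, haptoglobin, the plasma protein that binds free hemoglobin, rose from 1390 ± 312 to 3597 ± 1198 TPM (log2 1.33, SE 0.27, limma adjusted p = 0.00144).

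Many of these 13 genes are made by Kupffer cells or, like Hp and Hpx, by hepatocytes, so their sum, 3370 to 5135 TPM in LAC and 6518 to 14309 TPM in ID6, does not measure red cell clearance. In mice numbered 200 and above, 3 of 13 were called higher in ID6 against LAC and 10 of 13 were higher by the adjusted p alone, with Clec4f at 0.89 and below the fold threshold. In ID6 against NUL, 1 of 13 was then higher by the adjusted p alone.

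Among genes that signal iron status and red cell production, the iron genes Hamp and Tfrc were called between stages. Hamp, hepcidin, the liver hormone that blocks iron export, was at 7303 ± 2559 TPM in NUL, 1618 ± 1199 in LAC and 8623 ± 1158 in ID6 (SD, n = 7, 6 and 6). It fell in LAC (log2 -2.67, SE 0.54, limma adjusted p = 0.00382) and rose in ID6 against LAC (log2 3.0, SE 0.56, limma adjusted p = 7.45e-04). Tfrc, the transferrin receptor, rose in LAC from 9.22 ± 5.45 to 25.3 ± 5.04 TPM (log2 1.55, SE 0.29, limma adjusted p = 0.00233). In mice numbered 200 and above the changes were -1.93 and 1.84 for Hamp and 1.02 for Tfrc, all still called. Epo, erythropoietin, was listed at 0 in all 19 mice, and Erfe, the erythroid hormone that lowers hepcidin, reached at most 0.14 TPM. Of the 5 genes with values, 2 were called in LAC against NUL, 1 in ID6 against LAC and 0 in ID6 against NUL.

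No platelet or neutrophil marker was called lower in ID6. Of 5 platelet genes, 0 were called by limma in any comparison, with 2, 1 and 0 at an unadjusted p under 0.05, and the summed level of the list was 4.69 to 9.14 TPM in NUL, 3.73 to 6.08 in LAC and 4.55 to 7.24 in ID6. Pf4, a platelet chemokine, was at 2.31 ± 0.878 TPM in LAC and 3.12 ± 0.791 in ID6 (SD, n = 6 each). Of 8 neutrophil genes, 2 were called higher in ID6 against LAC, Retnlg (log2 1.20, SE 0.16, limma adjusted p = 3.28e-05) and S100a9 (log2 1.09, SE 0.28, limma adjusted p = 0.00966), though in mice numbered 200 and above only Retnlg was called, at 1.12. The list summed to 4.37 to 10.79 TPM in LAC and 13.15 to 22.66 in ID6. The part of a changed blood content in the globin values was not tested.

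Proliferation genes were highest in LAC. Cdk1 and Ccnb1, which drive entry into mitosis, fell in ID6 against LAC by 1.59 and 1.57 on the log2 scale (SE 0.31 and 0.21, limma adjusted p = 0.00121 and 4.58e-05), and Cdk1 rose in LAC by 1.22 (SE 0.30, limma adjusted p = 0.0155). All 5 genes of that list were lower in ID6 than in LAC by the adjusted p alone, with 2 called, and 4 of 5 were higher in LAC than in NUL, with 1 called. In ID6 against NUL 0 of 5 passed by limma, 1 at an unadjusted p under 0.05, with a median of -0.29. In mice numbered 200 and above 4 were called higher in LAC, 5 lower in ID6 against LAC and 0 in ID6 against NUL. Their part in the globin values was not tested. Among 6 hepatocyte genes, which mark the labelled tissue and summed to 61227 to 155015 TPM over all mice, 0 were called by limma, and by the adjusted p alone Alb was higher in LAC than in NUL and in ID6 (limma adjusted p = 0.00137 and 0.00434). Ttr, transthyretin, went the other way between LAC and ID6, and rose by 0.72 (SE 0.23, limma adjusted p = 0.0317). In mice numbered 200 and above, 0 of 6 were higher and 1 lower in ID6 against LAC by the adjusted p alone. In LAC against NUL 1 of 6 was then higher. Alb alone held 55208 ± 9427 TPM in NUL, 100197 ± 16461 in LAC and 62534 ± 10276 in ID6 (SD, n = 7, 6 and 6), and a larger share for it leaves less TPM for other genes.

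**Figure D5:**
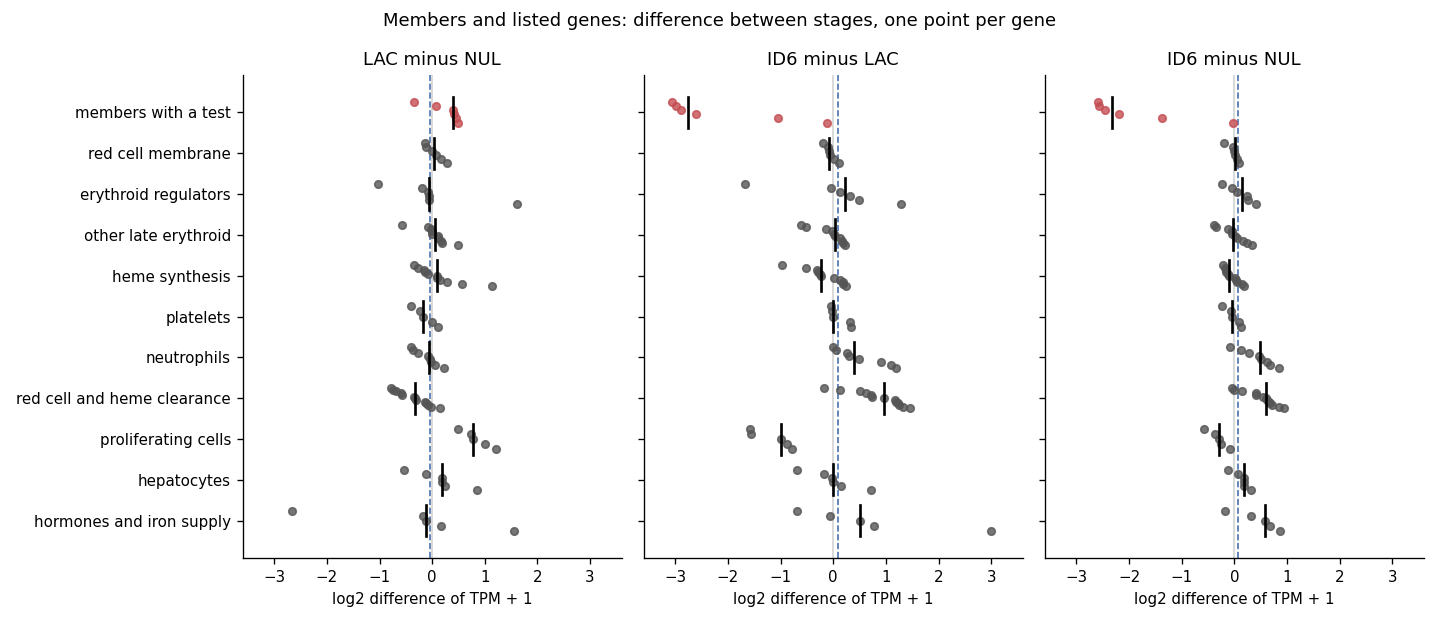
Log2 difference of TPM + 1 (horizontal axes) for each member and each listed gene that passed the filter, 1 point per gene, in LAC minus NUL, ID6 minus LAC and ID6 minus NUL, with black bars for the median of a list and a dashed blue line for the median over all 16230 genes. In ID6 minus LAC the globins lie between -3.06 and -2.60 and the clearance genes have a median of 0.97. The red cell membrane genes lie between -0.20 and 0.11. Ank1, Dmtn, Sptb and Icam4 were too low in LAC for a fall like that of the globins to show at its full size.

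The pattern of the globin sum over all 19 mice was most like that of sterol synthesis genes. Among 11599 genes that averaged 1 TPM or more, members left out, the highest Pearson correlations of log2(TPM + 1) were those of Msmo1 (0.863), Idi1 (0.854), Mvk (0.840), Slc39a5 (0.835), Sqle (0.828), Tm7sf2 (0.828), Ces2e (0.828), Hmgcs1 (0.814), Nsdhl (0.813) and Cyp51 (0.813). Of these, Msmo1, Idi1, Mvk, Sqle, Tm7sf2, Hmgcs1, Nsdhl and Cyp51 encode enzymes of cholesterol synthesis. Msmo1 had means of 56.5, 90 and 11.1 TPM in NUL, LAC and ID6. The members themselves correlated with the sum at 0.993 to 0.996 for the globins, which are parts of it, 0.753 for Alas2 and 0.034 for Fech. All these points share the differences between stages, and no test was made.

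Once the stage means were subtracted, the sterol genes were no longer among the 10 most alike. Among those were Tle6 (0.795), Slc39a11 (0.754), Gpr19 (0.752), Ap5s1 (0.75), Vtn (0.721), Nenf (0.717), Atp6v1g1 (0.712), Rcn2 (0.710) and D030056L22Rik (0.705). The globins stayed at 0.957 to 0.985, Alas2 was at 0.507 and Fech at -0.494, so that each globin was closer to the sum it is part of than any of these genes.

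The reference promoters of the 4 globins and Alas2, the members called lower in ID6, are shown to compare their sequence, as 110 bases before the RefSeq start on GRCm38.p6, written in the direction of transcription. They are sequences of the reference strain. A promoter was used for 5 of the 7 members. Capitals mark matches on either strand to the motifs searched. The GATA motif was searched as AGATAA or with a final G as AGATAG, and with an initial T as TGATAA or likewise as TGATAG. The CACCC box, which Klf1 binds, was searched as CCACACCC and in the wider form CCNCNCCC. The TATA box was searched as ATAAAA or else as TATAAA, and the CCAAT box by those letters. CCACACCC also matches CCNCNCCC, and overlapping matches run together.
Hba-a1, chr11:32283562-32283671, plus strand: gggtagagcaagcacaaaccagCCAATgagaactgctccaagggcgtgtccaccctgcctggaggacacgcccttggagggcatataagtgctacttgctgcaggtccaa
Hba-a2, chr11:32296382-32296491, plus strand: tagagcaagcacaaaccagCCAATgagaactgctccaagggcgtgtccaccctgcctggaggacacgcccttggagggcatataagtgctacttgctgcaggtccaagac
Hbb-bs, chr7:103827929-103828038, minus strand: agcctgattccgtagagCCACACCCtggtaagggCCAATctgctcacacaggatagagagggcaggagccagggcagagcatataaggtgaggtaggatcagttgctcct
Hbb-bt, chr7:103813924-103814033, minus strand: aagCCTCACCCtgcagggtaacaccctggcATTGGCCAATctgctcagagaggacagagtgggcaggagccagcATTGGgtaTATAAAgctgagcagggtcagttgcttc
Alas2, chrX:150547307-150547416, plus strand: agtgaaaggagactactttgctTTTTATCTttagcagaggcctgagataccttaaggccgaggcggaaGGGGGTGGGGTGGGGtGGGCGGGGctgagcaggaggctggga
The reference stretches around the starts of Hba-a1 and Hba-a2 were identical over 297 of 297 bases compared once shifted by 3 bases. The bases compared lie before and after the start. These genes thus have separate promoters of the same sequence in this stretch, besides nearly identical coding sequences. CCAAT matched before all 4 globin genes and not in the Alas2 window, and 33.8% of 32851 promoters hold it in the same length of 250 bases. A GATA motif matched before Hba-a1, Hba-a2, Hbb-bs and Alas2, against 26.5% of promoters, at 183, 186, 210 and 86 bases before the start. CCACACCC matched only before Hbb-bs, 93 bases before the start, against 3.2% of promoters, and the wider CCNCNCCC before Hbb-bs, Hbb-bt and Alas2, against 45.9%. A TATA motif matched before Hbb-bt and Alas2, against 22.8%. A match is no evidence of binding in these livers, and a missing match says only that these letters are not in the window.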

How the data were processed

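The authors enriched poly(A) RNA, sequenced paired reads, aligned them to GRCm38 (aligner not given in the sources used here), quantified genes with RSEM 1.3.1, which estimates how reads shared by paralogs divide, and deposited TPM for each gene in each mouse, rounded to 2 decimals. Columns were matched to the labels by name. Among 171 pairs of mice, 0 were identical. TPM keeps no depth, and the authors' DESeq2 test on counts was not repeated.

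Members were found by gene symbol. Log2(TPM + 1) was fitted with limma-trend (limma 3.58.1, R 4.3.3), 1 mean per stage, over the 16230 genes averaging 0.1 TPM or more, with Benjamini-Hochberg adjustment and the study's thresholds, adjusted p under 0.05 and log2 fold change of at least 1. Exact permutation tests used Python 3.11.15 with scipy 1.17.1. The members and gene lists were chosen with earlier results of these data known. Of 106 listed symbols 103 were in the table, Fam132b as Erfe, and Hbb-b1, Hbb-b2 and Ahsp were not analysed here. The rule named all members, list genes called in a comparison (at most 10 each, by size) and the 10 genes most like the globin sum by each measure. Other list genes were named after their values were seen. Some genes that met the rule or stand in the lists are not reported here.

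Alternatives tried were other pseudocounts (0.1, 0.5), no low filter or one at 1 TPM, fits of just the groups compared, scaling by median ratios, robust moderation, dropping the fold threshold, animal number range as covariate or restriction, medians, a linear scale, and omission of each mouse. On data simulated for ID6 against LAC over 16230 genes, limma-trend called 194 of 200 genes changed by 1.5 on the log2 scale and 0 unchanged genes. Promoters came from RefSeq, and positions and coding sequences from GENCODE M21.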

Additional observations from a re-analysis of the deposited data

Results flagged for a closer look

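Of the 32 sets of values tested (a member, sum or share within 1 stage), 6 had a mouse farther from its stage than Dixon's 95% limit, where chance flags about 1 in 20. All but 1 of these 6 concerned ID6_216, the involuting mouse with most globin, and they are one observation, since the globins move together. Hba-a1 was 104.3 TPM there against 46.8 in the next highest ID6 mouse, a gap as wide as 0.726 of the stage's range. Hba-a2 was 253.7 against 100.2 TPM (0.820 of the range), Hbb-bs 451.9 against 203.9 TPM (0.697) and Hbb-bt 31.04 against 9.75 TPM (0.833). The globin sum was 840.9 against 360.7 TPM (0.743). In the same mouse Slc4a1 was listed at 0. What sets this mouse apart was not tested.

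Slc4a1 in NUL_226 was 0.35 TPM against 0.06 TPM in the next highest nulliparous mouse, a gap of 0.853 of the range. That mouse also had the highest globin sum of its stage, 2400.26 TPM.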

How the results depend on the processing

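The choice of members fixed the direction of the globin sum in ID6, and its log2 differences were -3.17 to -2.78 against LAC and -2.51 to -2.36 against NUL, and -3.07 to -2.65 and -2.65 to -2.23 with each mouse left out. LAC against NUL stayed between 0.43 and 0.82, and between 0.29 and 0.56 with each mouse left out. Restriction to mice numbered 200 and above turned Alas2 plus Slc4a1 in LAC against NUL from -0.35 to 0.43, and Fech in ID6 against LAC from -0.12 to 0.09. With the range of animal number as covariate, Fech in ID6 against NUL turned from -0.03 to 0.09. ID6 holds no mouse numbered below 200, so its comparisons cannot be repeated in that range.

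Counts of calls over all genes were 121 in LAC against NUL, 314 in ID6 against LAC and 41 in ID6 against NUL. A pseudocount of 0.1, which enlarges the changes of low genes, gave 330, 894 and 95, and no fold threshold gave 1494, 3703 and 707. Restriction by animal number gave 25 in ID6 against NUL. Leaving out each mouse gave 108 to 132, 253 to 343 and 28 to 60. The split of higher to lower calls in ID6 against LAC was 167 to 147, but 110 to 174 after median-ratio scaling, and in ID6 against NUL 13 to 28, but 6 to 29. List genes called were 5, 13 and 0, but 9, 20 and 4 with a pseudocount of 0.1, 2 in ID6 against NUL with 0.5, and 17, 29 and 8 with no fold threshold. Without ID6_209, NUL_221, NUL_226 or NUL_227, 1 list gene was called in ID6 against NUL, and without any other mouse 0. Lmo2 in LAC against NUL fell short of the fold threshold, at -0.99 to -0.92, without LAC_102, LAC_133, LAC_36, NUL_221, NUL_226 or NUL_227, and at -0.99 after median-ratio scaling. With the range of animal number as covariate, Lmo2, Hp and Clec4f in ID6 against LAC fell short of it at 0.96, 0.95 and 0.91.

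Within stages, Alas2 and the globin sum in ID6 had r = 0.977 on a linear scale and 0.506 without the 2 mice most distant from the median, and neither passed the adjustment. Slc4a1 gave -0.184 in NUL without those mice, and in LAC 0.864 on a linear scale and 0.904 without them. With 4 mice left the permutation test cannot pass the adjusted threshold. No paired analysis was possible because no animal number occurs in more than 1 stage.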
